A study of Homo sapiens with 24 samples.

Results

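NF-κB is a family of dimeric transcription factors built from the products of NFKB1, NFKB2, REL, RELA and RELB. In resting cells the dimers are held in the cytoplasm by inhibitors of the IκB family, such as the products of NFKBIA, NFKBIB and NFKBIE. In the canonical branch, the IKK complex marks these inhibitors for destruction and frees mainly RELA and p50, the processed product of NFKB1, whereas in the non-canonical branch the kinase NIK leads to processing of p100, the product of NFKB2, to p52, which pairs with RELB. Several of these genes are themselves targets of NF-κB, among them NFKBIA and TNFAIP3, which close negative feedback loops. The 10 genes described here are the 5 subunit genes, the 3 IκB genes, and the feedback genes TNFAIP3 and BIRC3. They were chosen by gene symbol as a functional family, with earlier results of these data known, each was found by its Ensembl identifier, and all 10 of the 14585 genes in the deposited table passed the filter on low counts in both cell lines.

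RNA was sequenced from the lung carcinoma line A549 and the hepatocellular carcinoma line Huh7, both of human origin, each with 3 libraries per group and 24 libraries in all. The labels give both lines as wild type, although the study describes p53 as wild type in A549 and as mutated in Huh7. Each line had a control group and 3 treated groups, which received extracts of Pulsatilla chinensis, Bupleurum chinense or Polyporus umbellatus, plants and a fungus used in traditional Chinese medicine. According to the study's methods the extracts were made in ethanol, dried and taken up in DMSO, while the dose and time for the sequenced cells, and whether controls received DMSO, are not given in the sources used here. The labels do not say whether replicates were separate cultures, so p-values measure only the spread between these libraries, which may be technical. All herbs of a line were compared with the same 3 control libraries, so that the comparisons of a line are not independent of each other.

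The libraries held between 6803648 and 24345364 estimated counts on protein-coding genes. The markers of a lung carcinoma line (KRT7, KRT8, KRT18, KRT19, ALDH1A1 and ALDH3A1) summed to 12430 to 14310 CPM (counts after scaling to a common library size) in A549, against 3905 to 6765 CPM in Huh7. Not all of them told the lines apart. In Huh7 KRT7 had 0 to 3 counts per library and ALDH3A1 5 to 34. KRT8 had 9659 to 92030 there, KRT18 7475 to 41186, ALDH1A1 10078 to 29765 and KRT19 120 to 1229. The 8 hepatocyte markers summed to 13280 to 23640 CPM in Huh7 against 25.07 to 37.48 CPM in A549. In the Huh7 libraries treated with P. chinensis the hepatocyte sum was 13280 to 14180 CPM, against 20660 to 21070 CPM in control. Of the 6 leukocyte markers fixed, 4 were in the table. PTPRC, which defines leukocytes, had 8 to 25 counts per library in A549 and 23 to 69 in Huh7, CD14 had 12 to 43 and 2 to 16, and CD68 had 117 to 376 and 131 to 992, while LYZ had 0 to 7 in A549 and 2954 to 17835 in Huh7. Their sum in Huh7 was 723.2 to 764.5 CPM in control and lower with each herb, at 465.4 to 488.4 CPM with P. chinensis, 496.7 to 539.8 under B. chinense and 387.8 to 499.6 with P. umbellatus. The A549 sum was 18.75 to 21.61 CPM in control and 23.45 to 30.27 over the treated libraries. Of the 5 fibroblast markers in A549, COL1A2 was at 0 counts in every library, COL3A1 and PDGFRB at 0 to 5 and 0 to 8, COL1A1 at 34 to 77 and DCN at 11 to 38. In Huh7 COL1A1 was at 0 to 163 counts, COL1A2 at 21 to 321, COL3A1 at 0 to 24, PDGFRB at 3 to 91 and DCN at 23 to 101. The sum of the 5 in Huh7 was 12.2 to 14.44 CPM in control and 20.58 to 30.06 CPM with P. chinensis, where 2 of the 5 rose. The part of these markers in the results was not tested. Replicate 2 of P. umbellatus in Huh7 stood apart from its group. Against the other libraries of the group its counts spread 13.28 and 17.64 times as much as sampling noise, whereas all other pairs of replicates were at 2.739 to 5.356 times. Relative to each gene's mean over the 12 libraries of the line, expression in these Huh7 P. umbellatus libraries also fell with the transcript's GC content. The slope was -0.592 to -0.0963 log2 units per 10 percentage points, against 0.0701 to 0.1301 in the other Huh7 libraries and -0.0821 to 0.0372 in A549. Since the mean includes all libraries of a line, the slopes of its groups depend on each other. The fold changes of the 10 genes in this group are therefore given with a correction for GC content and transcript length beside them, which was chosen after the data were seen.

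NF-κB dimers bind κB sites, and the promoters of the family's own genes are shown here because feedback within the family runs through such sites. RefSeq windows on GRCh38.p14, from 250 bases before to 50 bases after the start of a transcript, were in the table used for 8 of the 10 genes. RELB (chr19:45001461-45038192, + strand) and NFKBIE (chr6:44258166-44265788, - strand) were not in it. Before the start, matches to the κB consensus on either strand lay in the windows of 7 genes, namely NFKB1, NFKB2, REL, NFKBIA, NFKBIB, TNFAIP3 and BIRC3, and none lay in the RELA windows. Over 35116 windows of all genes 5.91% held the consensus, and 6.68% of the 17193 windows of genes with counts here did. These shares count single windows over their full length. The 7 genes were instead counted over any of their windows and before the start only, so the figures are not like measures. The looser form GGGNNNNNCC, searched on both strands, was in 58.67% and 69.93% of the same windows, and every consensus match is also a match to it. A single window is printed for each of the 7 genes, read on the strand of the gene from 5′ to 3′, with the letters that match the consensus in capitals. In REL and NFKBIB the capitals are a pair of matches that overlap with a shift of 1 base, and in TNFAIP3 they are a pair of matches on the reverse strand. A match is a description of these letters and not evidence of binding.
NFKB1 (chr4:102501300-102501329, + strand): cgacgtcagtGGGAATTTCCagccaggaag
NFKB2 (chr10:102395674-102395703, + strand): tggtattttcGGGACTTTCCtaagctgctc
REL (chr2:60881517-60881547, + strand): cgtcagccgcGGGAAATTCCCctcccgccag
NFKBIA (chr14:35404811-35404840, - strand): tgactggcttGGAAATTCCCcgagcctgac
NFKBIB (chr19:38899931-38899961, + strand): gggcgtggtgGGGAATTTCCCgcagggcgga
TNFAIP3 (chr6:137867182-137867223, + strand): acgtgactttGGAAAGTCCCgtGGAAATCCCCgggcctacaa
BIRC3 (chr11:102317275-102317304, + strand): tttgggtcatGGAAATCCCCgagtgggttt

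In untreated cells the levels of several of the genes differed between the lines. Levels of different genes were compared as CPM per kb of the canonical transcript, so that long and short transcripts can be set side by side. In A549 control cells the order was NFKBIA (52.5 ± 2.03 CPM per kb, SD, n = 3), RELA (34.2 ± 1.37), NFKB2 (23.6 ± 2.58), BIRC3 (15.4 ± 0.478), NFKBIB (11.4 ± 1.30), REL (10.3 ± 0.395), NFKB1 (9.75 ± 0.871), RELB (7.04 ± 1.27), NFKBIE (5.49 ± 0.365) and TNFAIP3 (1.09 ± 0.536). In this order the ranges of neighbours overlapped between NFKBIB and REL, between REL and NFKB1, and between RELB and NFKBIE. In Huh7 control cells the order was RELA (25.5 ± 0.606 CPM per kb, SD, n = 3), NFKBIA (18.2 ± 0.607), NFKB1 (12.97 ± 0.418), NFKB2 (10.6 ± 2.10), REL (8.93 ± 0.206), NFKBIB (6.88 ± 0.202), RELB (6.42 ± 1.003), NFKBIE (5.596 ± 0.500), TNFAIP3 (2.20 ± 0.246) and BIRC3 (0.210 ± 0.0313). Here the ranges overlapped between NFKB1 and NFKB2, NFKB2 and REL, NFKBIB and RELB, and RELB and NFKBIE. RELA, the activating subunit of the canonical dimer, and NFKBIA, its main inhibitor, headed both orders, and BIRC3 moved from the fourth place in A549 to the last in Huh7.

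**Figure D1:**
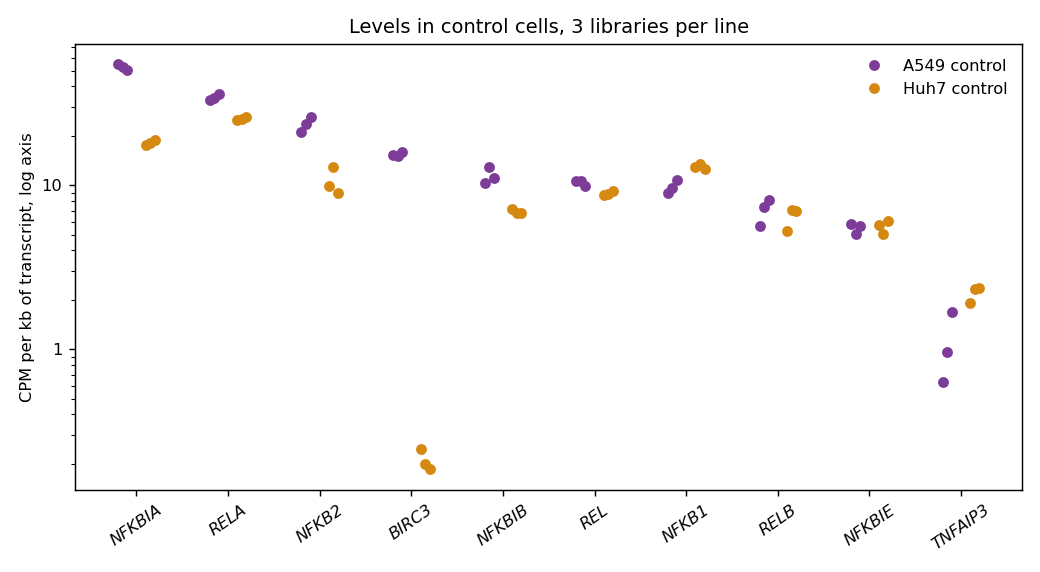
Levels of the 10 genes in the control libraries as CPM per kb of transcript on a log axis, with 1 point per library and 3 libraries per line. BIRC3 lies at 15.4 CPM per kb on average in A549 and at 0.210 in Huh7, while the libraries of the lines overlap for RELB and NFKBIE.

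Between the control cells of the lines, 8 of the 10 genes differed at an adjusted p below 0.05 in edgeR's quasi-likelihood test, when 68.7% of the 12924 genes tested in both lines did. The largest difference was in BIRC3, which encodes cIAP2, a ubiquitin ligase that restrains NIK. It was 66.3-fold higher in A549 (log2 difference 6.05 ± 0.15, SE, n = 3 and 3, adjusted p = 7.68e-21), and its counts in Huh7 control cells were only 22 to 33 per library. NFKBIA was 2.87-fold higher in A549, NFKB2 2.24-fold, NFKBIB 1.65-fold, RELA 1.34-fold and REL 1.16-fold. NFKB1 and TNFAIP3 were lower in A549, at 0.754 and 0.514 times the level in Huh7. RELB and NFKBIE did not pass the test, with log2 differences of 0.14 (95% interval -0.23 to 0.51) and -0.03 (-0.37 to 0.30). With the correction for GC content and length the RELB value was 0.50 (adjusted p = 0.00443). That correction is set within each line against the mean of all its libraries, treated ones included. It therefore does not remove a GC difference between the lines, and the corrected value is not a better estimate of the line difference.

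Each herb raised several of the 10 genes in A549, and no herb lowered one there. P. chinensis raised 7 of 10, against 15.8% of the 13633 genes tested, and lowered none, against 17.1%. B. chinense raised 6, against 13.1%, and lowered none, against 15%. P. umbellatus raised 6, against 13.4%, and lowered none, against 14.8%. The 6 genes raised by every herb were NFKB2, RELB, NFKBIA, NFKBIE, TNFAIP3 and BIRC3. NFKB1, REL and NFKBIB did not pass the test with any herb in A549. The median log2 fold change of the 10 genes under P. chinensis was 0.83, under B. chinense 0.59 and under P. umbellatus 0.73, against 0.014, -0.0018 and -0.012 over all genes tested. The groups of herb and control did not overlap for 7 of the 10 genes under P. chinensis, when 45.1% of all genes tested did not, for 7 under B. chinense, against 40.4%, and for 8 under P. umbellatus, against 41.6%.

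In Huh7 TNFAIP3 and BIRC3 passed the test with every herb, as in A549. P. chinensis raised 5 of the 10 genes, against 10.5% of the 13875 genes tested, and lowered none, against 10.5%. B. chinense raised 2, against 0.519%, and lowered none, against 0.757%. With the correction for GC content and transcript length B. chinense again raised 2 and lowered none, against 2.28% and 3.52% of all genes. In a fit of the compared libraries alone B. chinense raised 1, when 1122 of the 13875 genes passed in either direction. P. umbellatus raised 3, against 19.3%, and lowered 2, against 17.8%. With the correction for GC content and transcript length P. umbellatus raised 4 (REL, RELA, TNFAIP3 and BIRC3), against 11.2% of all genes, and lowered 0, against 8.41%. Without replicate 2 and without the correction P. umbellatus raised 3 and lowered 1, a fit whose share over all genes is not given here. With the same correction P. chinensis raised 7 in Huh7, RELA and RELB being added, against 14% of all genes, and 6 in A549, so that a lower count in Huh7 than in A549 depends on the processing for this herb. The median log2 fold change of the 10 genes under P. chinensis was 0.48, under B. chinense 0.049 and under P. umbellatus -0.25, against 0.011, -0.0001 and 0.032 over all genes tested. The median under P. umbellatus turned to 0.26 with the correction, against 0.031 over all genes. Groups did not overlap for 7 of the 10 genes under P. chinensis, when 53.3% of all genes tested did not, for 4 under B. chinense, against 29.1%, and for 5 under P. umbellatus, against 48.4%.

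**Figure D2:**
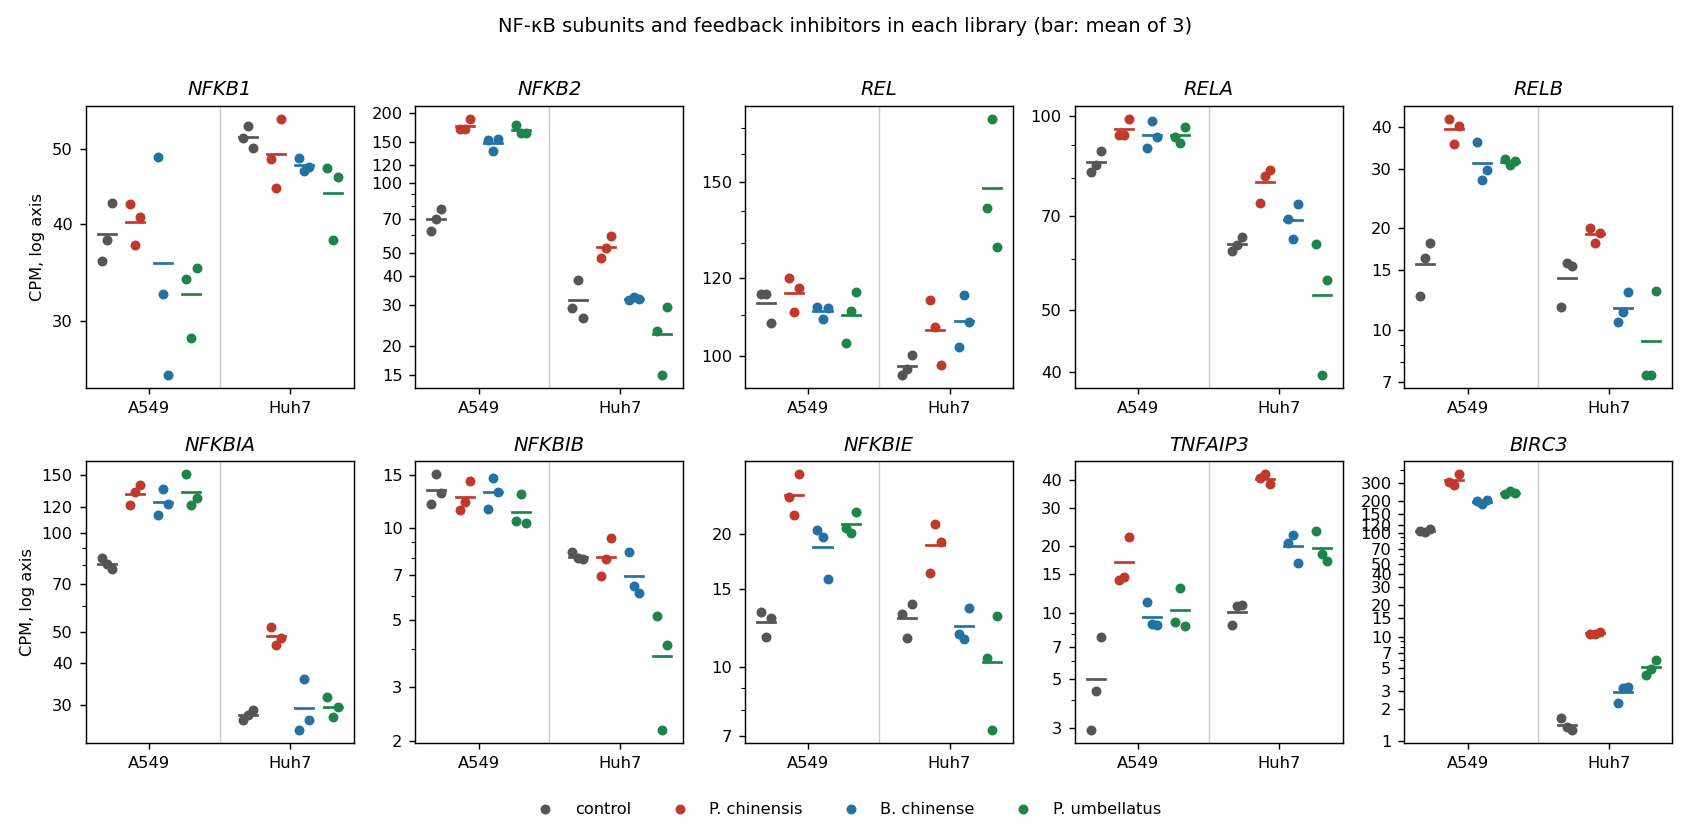
CPM of each gene in each of the 24 libraries on a log axis whose range differs between panels, with 1 point per library and a bar at the mean of 3. In A549 the libraries of every herb lie above all controls for NFKB2, RELB, NFKBIA, NFKBIE, TNFAIP3 and BIRC3, while NFKB1, REL and NFKBIB overlap with control in most groups.

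Among the canonical subunits, NFKB1 encodes p105, the precursor of p50, and did not pass the test in any comparison of a herb with control, apart from 2 of the alternative analyses. In A549 its values were 35.9, 38.2 and 42.6 CPM in control, 42.5, 37.6 and 40.8 under P. chinensis, 48.9, 32.5 and 25.6 under B. chinense, and 34.0, 28.6 and 35.1 under P. umbellatus. The B. chinense libraries reached both above and below the control range, and without B. chinense replicate 1 the fall passed (-0.41, adjusted p = 0.0352). In Huh7 its values were 51.7, 53.5 and 50.1 CPM in control, 48.6, 44.5 and 54.7 under P. chinensis, 48.7, 46.9 and 47.3 under B. chinense, and 47.3, 38.2 and 46.0 under P. umbellatus. The B. chinense and P. umbellatus libraries lay below every control, with log2 fold changes of -0.12 (95% interval -0.33 to 0.09) and -0.24 (-0.45 to -0.02, adjusted p = 0.0763). The latter was -0.23 with the correction for GC content and length (adjusted p = 0.0703), and passed with DESeq2 (adjusted p = 0.043).

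RELA encodes p65, the subunit that carries the transactivation domain of the canonical dimer. In A549 it was at 81.8, 83.9 and 88.3 CPM in control, 93.3, 93.4 and 98.9 under P. chinensis, 89.2, 98.2 and 92.8 under B. chinense, and 92.7, 90.8 and 96.2 under P. umbellatus. Every treated library lay above every control library, yet the changes were small. P. chinensis raised RELA 1.12-fold (log2 fold change 0.17 ± 0.06, SE, adjusted p = 0.0351), a call that was lost in 7 of 20 alternative analyses, among them DESeq2. With B. chinense and P. umbellatus the log2 fold change was 0.14 in each case, at adjusted p = 0.0859 and 0.0899. In Huh7 RELA was at 61.7, 63.1 and 64.8 CPM in control, 73.3, 80.7 and 82.4 under P. chinensis, 69.2, 64.5 and 72.9 under B. chinense, and 63.3, 39.6 and 55.5 under P. umbellatus. The P. chinensis libraries lay above control without passing the test (log2 fold change 0.32, 95% interval 0.04 to 0.59, adjusted p = 0.0994). They did pass in 4 of 20 alternatives, namely with the correction for GC content and length (adjusted p = 0.00252), with voom, with the compared libraries alone and without replicate 2 of P. umbellatus (adjusted p = 0.00288). The lowest value belonged to that library. With P. umbellatus the log2 fold change was -0.25 (adjusted p = 0.143), which passed without replicate 1 of P. umbellatus (-0.40, adjusted p = 0.0288) and turned to 0.23 (adjusted p = 0.0444) with the correction.

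REL encodes c-Rel, best known from lymphocytes. In A549 the values were 116, 116 and 107.9 CPM in control, and 103 to 120 CPM over the 9 treated libraries. In Huh7 they were 95.7, 97.1 and 100.2 CPM in control, 114, 107 and 97.8 under P. chinensis, 102, 115 and 108.1 under B. chinense, and 141, 174 and 129 under P. umbellatus. Only the P. umbellatus group passed the test, with all 3 libraries above every other library of the line. The rise was 1.51-fold (log2 fold change 0.60 ± 0.10, SE, adjusted p = 0.00194). The REL transcript has a GC content of 38.42%, and with the correction for GC content and length the log2 fold change was 0.25 (adjusted p = 0.00886). Without replicate 2 it was 0.46.

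Of the non-canonical pair, NFKB2 encodes p100, which acts as an inhibitor of RELB until it is processed to p52. In A549 it was at 62.2, 70.03 and 77.4 CPM in control, 171, 170 and 189 under P. chinensis, 154, 138 and 154 under B. chinense, and 177, 164 and 165 under P. umbellatus. The lowest treated library was at 138 CPM, well above the highest control. The rise was 2.52-fold with P. chinensis (log2 fold change 1.33 ± 0.08, SE, adjusted p = 1.1e-08), 2.11-fold under B. chinense (1.08 ± 0.08, adjusted p = 1.85e-07) and 2.40-fold with P. umbellatus (1.27 ± 0.08, adjusted p = 4.49e-08). In Huh7 the values were 29.2, 38.4 and 26.4 CPM in control, 47.8, 52.6 and 59.1 under P. chinensis, 31.5, 32.3 and 31.9 under B. chinense, and 23.2, 14.98 and 29.4 under P. umbellatus. P. chinensis alone passed the test there, with libraries above every control and a rise of 1.69-fold (log2 fold change 0.76 ± 0.19, SE, adjusted p = 0.0138). That call was lost without control replicate 1, control replicate 3 or P. chinensis replicate 3, at an adjusted p of up to 0.0698. The log2 fold change was 0.03 (95% interval -0.40 to 0.45) with B. chinense and -0.46 (-0.89 to -0.02, adjusted p = 0.0903) with P. umbellatus, and the latter passed without P. umbellatus replicate 3 (-0.70, adjusted p = 0.013) and was 0.15 with the correction for GC content and length.

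RELB encodes the partner of p52. In A549 its values were 12.5, 16.3 and 18.03 CPM in control, 42.3, 35.5 and 40.2 under P. chinensis, 36.0, 27.8 and 29.8 under B. chinense, and 32.1, 30.8 and 31.7 under P. umbellatus. All treated libraries lay above all controls. The rise was 2.48-fold with P. chinensis (log2 fold change 1.31 ± 0.13, SE, adjusted p = 2.98e-06), 1.97-fold under B. chinense (0.98 ± 0.14, adjusted p = 7.92e-05) and 1.99-fold with P. umbellatus (0.99 ± 0.13, adjusted p = 5.78e-05). In Huh7 the values were 11.7, 15.7 and 15.4 CPM in control, 20.1, 18.03 and 19.4 under P. chinensis, 10.5, 11.2 and 12.9 under B. chinense, and 7.33, 7.35 and 13.05 under P. umbellatus. P. chinensis lay above control without passing the test (log2 fold change 0.42, 95% interval -0.01 to 0.85, adjusted p = 0.156), but passed in 4 of 20 alternatives, namely with the correction for GC content and length (0.50, adjusted p = 0.032), with voom (adjusted p = 0.00675), with the compared libraries alone and without P. umbellatus replicate 3. P. umbellatus lowered RELB to 0.658 times control (log2 fold change -0.60 ± 0.21, SE, adjusted p = 0.0392), although the groups overlapped. This fall was lost without replicate 2 (-0.47, adjusted p = 0.114) and in 7 further alternatives, and it turned to a log2 fold change of 0.28 (adjusted p = 0.306) with the correction for GC content and length. The RELB transcript has the highest GC content of the 10, at 64.92%.

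The ratio of non-canonical to canonical subunit mRNA within each library does not depend on the scaling between libraries, and is described here with no test. The ratio of NFKB2 to NFKB1 counts per kb was 2.42 on average in A549 control cells (range 2.33 to 2.47). It was 5.91 with P. chinensis (5.41 to 6.23), 6.01 under B. chinense (4.23 to 8.10) and 7.01 with P. umbellatus (6.33 to 7.71). In Huh7 the same ratio was 0.812 in control (0.709 to 0.965), 1.46 with P. chinensis (1.32 to 1.59), 0.901 under B. chinense and 0.683 with P. umbellatus. NFKB2 mRNA thus exceeded NFKB1 mRNA per kb in every A549 library, and in Huh7 it did so in every P. chinensis library and in no other. The ratio of RELB to RELA was 0.205 in A549 control cells (0.171 to 0.228), and 0.460 with P. chinensis, 0.374 under B. chinense and 0.377 with P. umbellatus. In Huh7 it was 0.252 in control (0.211 to 0.278), 0.272 with P. chinensis (0.249 to 0.305), 0.187 under B. chinense and 0.199 with P. umbellatus. With the correction for GC content and length the NFKB2 to NFKB1 ratio in Huh7 was 0.705 in control (0.612 to 0.832), 1.35 with P. chinensis (1.24 to 1.47) and 0.921 with P. umbellatus (0.834 to 0.982), so that P. umbellatus then lay above control instead of below on average. The RELB to RELA ratio was 0.228 in control and 0.246 with P. umbellatus (0.156 to 0.308). Treated and control libraries did not overlap in A549 for either ratio.

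**Figure D3:**
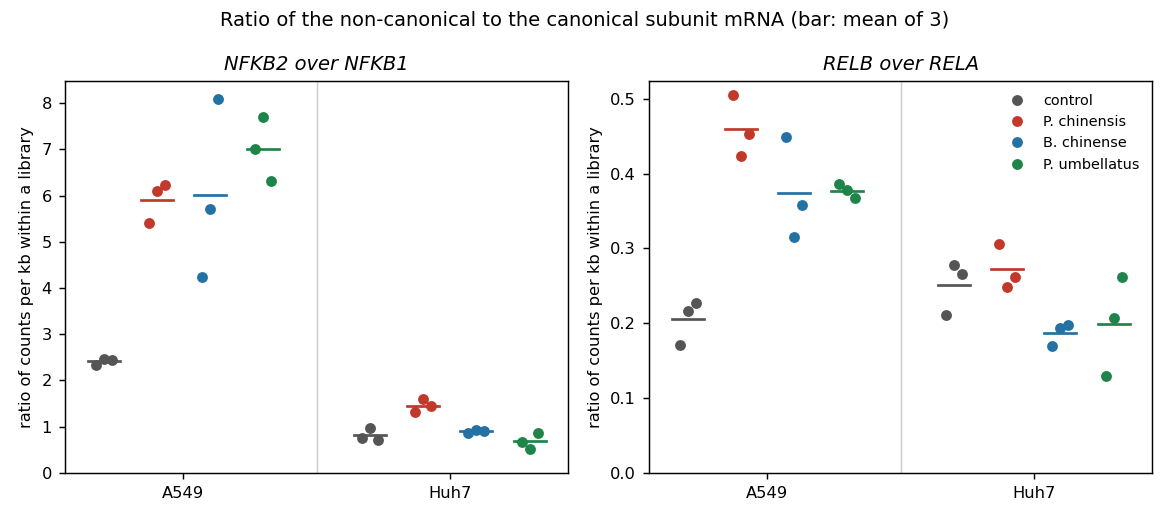
Ratio of NFKB2 to NFKB1 and of RELB to RELA in each library, as counts per kb of transcript, with 1 point per library and a bar at the mean of 3. In A549 the NFKB2 to NFKB1 ratio is 2.33 to 2.47 in control and 4.23 to 8.10 in treated libraries, whereas in Huh7 only P. chinensis lies above 1.

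Of the IκB genes, NFKBIA encodes IκBα, the inhibitor that NF-κB rapidly resupplies after a stimulus. In A549 it was at 83.7, 80.2 and 77.4 CPM in control, 121, 133 and 140 under P. chinensis, 113, 136 and 122 under B. chinense, and 151, 121 and 127 under P. umbellatus. Treated libraries did not overlap with control. The log2 fold changes were 0.71 ± 0.09 (SE, adjusted p = 2.25e-05), 0.62 ± 0.09 (adjusted p = 0.000113) and 0.73 ± 0.09 (adjusted p = 2.26e-05) in that order of herbs. In Huh7 the values were 27.0, 27.9 and 28.9 CPM in control, 51.8, 45.7 and 47.8 under P. chinensis, 25.0, 35.9 and 27.0 under B. chinense, and 31.6, 27.5 and 29.4 under P. umbellatus. P. chinensis raised it 1.73-fold with no overlap (log2 fold change 0.79 ± 0.12, SE, adjusted p = 0.00068). With B. chinense and P. umbellatus the groups overlapped with control, and the log2 fold changes were 0.07 (95% interval -0.20 to 0.34) and 0.08 (-0.19 to 0.36). The latter was 0.31 with the correction for GC content and length (adjusted p = 0.0905).

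NFKBIE encodes IκBε, another inhibitor that is resupplied by NF-κB. In A549 it was at 13.3, 11.7 and 12.9 CPM in control, 24.1, 22.0 and 27.2 under P. chinensis, 20.4, 19.7 and 15.8 under B. chinense, and 20.5, 20.1 and 22.3 under P. umbellatus. Every treated library exceeded every control, and the folds were 1.92, 1.47 and 1.65, at adjusted p = 5.33e-05, 0.00518 and 0.0007. In Huh7 it was at 13.2, 11.7 and 13.9 CPM in control, 16.3, 21.0 and 19.1 under P. chinensis, 11.9, 11.6 and 13.6 under B. chinense, and 10.5, 7.20 and 13.05 under P. umbellatus. The P. chinensis libraries lay above control, at a log2 fold change of 0.54 ± 0.18 (SE, adjusted p = 0.0488), close to the threshold and lost in 12 of 20 alternatives. With B. chinense the log2 fold change was -0.06 and with P. umbellatus -0.32, neither past the test. The latter passed without P. umbellatus replicate 3 (-0.53, adjusted p = 0.0351) and was 0.26 with the correction for GC content and length.

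NFKBIB encodes IκBβ, a further inhibitor of the family. In A549 it was at 12.04, 15.05 and 13.02 CPM in control, and at 10.4 to 14.6 CPM over the treated libraries, which overlapped with control for each herb. In Huh7 it was at 8.33, 7.95 and 7.92 CPM in control, 6.94, 7.89 and 9.26 under P. chinensis, 8.34, 6.48 and 6.11 under B. chinense, and 5.13, 2.16 and 4.12 under P. umbellatus. The P. umbellatus libraries lay below every other library of the line, at 0.486 times control (log2 fold change -1.04 ± 0.25, SE, adjusted p = 0.00712). The lowest value again belonged to replicate 2, without which the log2 fold change was -0.79 (adjusted p = 0.00905). With the correction for GC content and length it was -0.15 (adjusted p = 0.663). The NFKBIB transcript has a GC content of 64.6%.

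TNFAIP3 encodes A20, a ubiquitin editing enzyme that shuts off signalling upstream of IKK. In A549 its values were low and spread widely in control, at 2.91, 4.43 and 7.71 CPM, and were 14.0, 14.6 and 22.1 CPM under P. chinensis, 11.1, 8.86 and 8.77 under B. chinense, and 9.05, 12.99 and 8.68 under P. umbellatus. All treated libraries lay above all controls. The rise was 3.24-fold with P. chinensis (log2 fold change 1.70 ± 0.30, SE, adjusted p = 0.000403), 1.85-fold under B. chinense (0.89 ± 0.31, adjusted p = 0.0378) and 1.97-fold with P. umbellatus (0.98 ± 0.30, adjusted p = 0.0212). Leaving out 1 library moved the log2 fold change between 0.64 and 1.32 with B. chinense and between 0.73 and 1.42 with P. umbellatus. The B. chinense call was lost without control replicate 1 or 2 or any B. chinense library, and the P. umbellatus call without control replicate 1 or 2 or P. umbellatus replicate 2. In Huh7 TNFAIP3 was at 8.78, 10.7 and 10.8 CPM in control, 40.8, 42.5 and 38.4 under P. chinensis, 20.6, 22.5 and 16.8 under B. chinense, and 23.4, 18.4 and 17.2 under P. umbellatus. The libraries of the 3 herbs did not overlap with control, and P. chinensis stood above the other herbs. The rise was 3.98-fold with P. chinensis (log2 fold change 1.99 ± 0.14, SE, adjusted p = 2.88e-06), 1.964-fold under B. chinense (0.97 ± 0.15, adjusted p = 0.00716) and 1.94-fold with P. umbellatus (0.95 ± 0.15, adjusted p = 0.00126). The P. umbellatus value was 0.93 with the correction for GC content and length.

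BIRC3 changed most of the 10 in Huh7. In A549 it was at 104, 101 and 107.5 CPM in control, 306, 286 and 366 under P. chinensis, 204, 188 and 205 under B. chinense, and 238, 250 and 240 under P. umbellatus. The 4 groups did not overlap with each other, in the order P. chinensis, P. umbellatus, B. chinense and control. The rise was 3.06-fold with P. chinensis (log2 fold change 1.61 ± 0.08, SE, adjusted p = 2.09e-09), 1.91-fold under B. chinense (0.93 ± 0.08, adjusted p = 7.31e-07) and 2.33-fold with P. umbellatus (1.22 ± 0.08, adjusted p = 5.77e-08). In Huh7 it was at 1.66, 1.36 and 1.25 CPM in control, 10.7, 10.7 and 11.04 under P. chinensis, 2.29, 3.24 and 3.31 under B. chinense, and 4.27, 4.90 and 5.98 under P. umbellatus. The groups stood in the same order as in A549, again without overlap. The rise was 7.04-fold with P. chinensis (log2 fold change 2.82 ± 0.20, SE, adjusted p = 1.92e-06), 1.99-fold under B. chinense (0.995 ± 0.22, adjusted p = 0.0364) and 3.36-fold with P. umbellatus (1.75 ± 0.21, adjusted p = 0.000345). The B. chinense call was lost in 10 of 20 alternatives, without any of the control or P. chinensis libraries and without B. chinense replicate 2 or 3 among them. The P. umbellatus value was 1.40 with the correction for GC content and length, and still past the threshold (adjusted p = 0.000943).

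**Figure D4:**
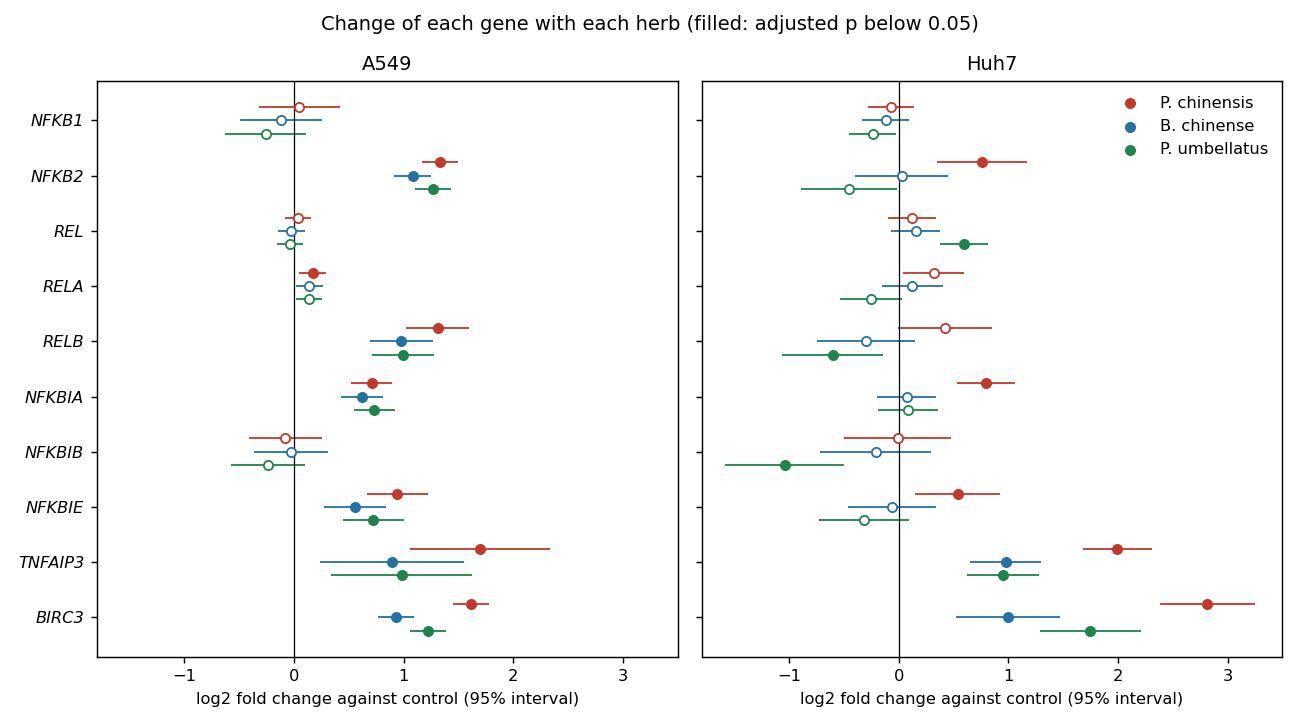
Log2 fold change of each gene with each herb against control in A549 and Huh7, with the 95% interval from edgeR, and filled points where the adjusted p was below 0.05. In A549 P. chinensis lies farthest to the right for TNFAIP3 (1.70) and BIRC3 (1.61), and in Huh7 it lies to the right of the other herbs for NFKB2, RELB, NFKBIA, NFKBIE, TNFAIP3 and BIRC3.

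To ask whether P. chinensis differed from the other herbs, it was compared with the mean of B. chinense and P. umbellatus. In A549 only BIRC3 of the 10 genes passed the test, at a log2 difference of 0.54 ± 0.06 (SE, adjusted p = 0.000682), when 3.57% of all genes tested passed in either direction. TNFAIP3 was higher by 0.76 (95% interval 0.25 to 1.28) without passing (adjusted p = 0.0964). In Huh7 8 of the 10 passed, all higher with P. chinensis, when 21.8% of all genes tested passed in either direction. The log2 differences were 1.45 for BIRC3, 1.03 for TNFAIP3, 0.97 for NFKB2, 0.87 for RELB, 0.73 for NFKBIE, 0.72 for NFKBIA, 0.61 for NFKBIB and 0.38 for RELA. Because the P. umbellatus libraries of Huh7 stood apart in GC content, P. chinensis was also compared with B. chinense alone, an alternative chosen after the data were seen. Then 5 genes passed, when 1083 of the 13875 genes tested did. The 5 were BIRC3 (1.82), TNFAIP3 (1.02), NFKB2 (0.73), RELB (0.72) and NFKBIA (0.72). NFKBIE (0.60, adjusted p = 0.0652), NFKBIB (0.20) and RELA (0.19) did not pass. With the correction for GC content and length 6 passed against the mean of the other herbs, and NFKBIB (0.16) and RELA (0.13) did not. The share over all genes in that corrected fit is not given here.

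Whether a herb acted differently on the lines was tested as an interaction over all 24 libraries, on the log2 scale and as the response in A549 minus that in Huh7. For P. chinensis 3 of the 10 genes passed, when 19.6% of the genes tested did. RELB rose more in A549 (difference 0.95 ± 0.24, SE, adjusted p = 0.00769), as did NFKB2 (0.63 ± 0.20, adjusted p = 0.0339, lost in 12 of 32 alternatives), and BIRC3 rose more in Huh7 (-1.13 ± 0.17, adjusted p = 1.23e-05). For B. chinense 3 passed, against 11.6%, with a larger response in A549 for RELB (1.32 ± 0.25), NFKB2 (1.09 ± 0.21) and NFKBIA (0.59 ± 0.15). For P. umbellatus 8 passed, against 34.4%, and NFKB1 and TNFAIP3 did not. With the correction for GC content and length 4 of these passed, when 3252 of the 12924 genes tested did. They were NFKB2 (1.07), RELB (0.69), NFKBIA (0.47) and REL (-0.30). The differences for TNFAIP3 were -0.24 (95% interval -0.93 to 0.46) with P. chinensis, -0.04 (-0.76 to 0.68) with B. chinense and 0.11 (-0.60 to 0.83) with P. umbellatus, none past the test.

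Upstream of the 10 genes, receptors and adaptors carry the signal from the cell surface. In A549 3 of 13 tested rose (23.1%, against 15.8% of all genes) and 3 fell (23.1% against 17.1%) with P. chinensis, shares near those of all genes. Under B. chinense 4 rose (30.8% against 13.1%) and 1 fell, and 5 rose (38.5% against 13.4%) and 1 fell with P. umbellatus. TRAF1, an adaptor that is also a target of NF-κB, rose with each herb (log2 fold change 1.52, 1.03 and 0.96), as did TNFRSF12A, the receptor of TWEAK (0.61, 0.52 and 0.69). IL1R1, the receptor of interleukin-1, fell (-0.50, -0.28 and -0.23), and TRAF5 fell with P. chinensis (-0.66). In Huh7 2 of 12 rose (16.7% against 10.5%) and 1 fell with P. chinensis, 0 changed under B. chinense, where 0.519% of all genes rose and 0.757% fell, and 2 rose (16.7% against 19.3%) and 5 fell (41.7% against 17.8%) with P. umbellatus. With the correction for GC content and length 0 rose (0% against 11.2% of all genes) and 1 fell (8.33% against 8.41%) with P. umbellatus. TRAF6, the adaptor of interleukin-1 and Toll-like receptors, rose with P. chinensis (0.41) and P. umbellatus (0.47), and MYD88 (-0.83) and TRADD (-0.89) fell with P. umbellatus. IL1R1, which fell in A549, rose in Huh7 with P. umbellatus (0.29). Of the P. umbellatus values MYD88 passed with the correction (-0.67), and TRAF6 (0.20), TRADD (-0.05) and IL1R1 (0.11) did not.

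Among kinases and ubiquitin ligases, 5 of 15 rose in A549 with P. chinensis (33.3% against 15.8% of all genes), 3 under B. chinense (20% against 13.1%) and 4 with P. umbellatus (26.7% against 13.4%), and 0 fell. IKBKB, the kinase subunit of IKK that marks IκB proteins, rose by 1.51, 1.03 and 1.35 on the log2 scale, and MAP3K14, which encodes NIK, by 0.62, 0.50 and 0.54. In Huh7 2 rose (13.3% against 10.5%) and 1 fell (6.67% against 10.5%) with P. chinensis, shares near those of all genes. MAP3K14 rose (0.89 ± 0.23, SE, adjusted p = 0.0151), as did BIRC2 (0.44), the paralog of BIRC3, and RBCK1, a subunit of the linear ubiquitin ligase, fell (-0.41). No gene of this list passed with B. chinense in Huh7. With P. umbellatus 3 rose and 3 fell (20% each, against 19.3% and 17.8% of all genes), with BIRC2 (0.59) and TAB2 (0.59) among the rises, and RBCK1 (-0.74) and TAB1 (-0.56) among the falls. With the correction 3 rose (20% against 11.2% of all genes) and 0 fell (0% against 8.41%), and of these 4 genes only TAB2 passed (0.37).

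The other inhibitors and the atypical IκB genes moved both ways in A549. Of 15 genes 3 rose (20% against 15.8% of all genes) and 4 fell (26.7% against 17.1%) with P. chinensis, 4 rose (26.7% against 13.1%) and 2 fell (13.3% against 15%) under B. chinense, and 5 rose (33.3% against 13.4%) and 2 fell (13.3% against 14.8%) with P. umbellatus. CYLD, a deubiquitinase that dampens NF-κB, rose with P. chinensis (0.49) and B. chinense (0.31). ZC3H12A, an RNase that degrades inflammatory mRNAs, fell with each herb (-0.79, -0.71 and -0.58). With P. chinensis TNIP1 rose (0.47) and ITCH fell (-0.64). NKIRAS1 rose with B. chinense (0.35) and P. umbellatus (0.43). OTULIN fell with B. chinense (-0.29), and with P. umbellatus TAX1BP1 rose (0.31) and BCL3 fell (-0.47). In Huh7 5 of 14 rose with P. chinensis (35.7% against 10.5%) and 0 fell, with ZC3H12A (1.13) and NFKBIZ (0.89) the largest rises. NFKBIZ, an atypical IκB protein of the nucleus, also rose with B. chinense (0.47) and P. umbellatus (0.71). With P. umbellatus 4 rose (28.6% against 19.3%) and 3 fell (21.4% against 17.8%) in Huh7, with NFKBID lowest at -2.08. ITCH rose there (0.74) and PDLIM2 fell (-0.49). With the correction 6 rose (42.9% against 11.2% of all genes) and 1 fell (7.14% against 8.41%), the latter NFKBID (-1.54). NFKBIZ (0.58) and ITCH (0.40) then passed as rises, and PDLIM2 (0.34) did not pass.

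Many of the other target genes of NF-κB rose in A549 with each herb and in Huh7 with P. chinensis. In A549 15 of 22 rose (68.2% against 15.8% of all genes) and 0 fell with P. chinensis, 11 rose (50% against 13.1%) and 1 fell under B. chinense, and 12 rose (54.5% against 13.4%) and 1 fell with P. umbellatus, with median log2 fold changes of 0.68, 0.44 and 0.56. LAMB3, a laminin chain, rose by 1.76, 1.30 and 1.31 and PLAU, the urokinase plasminogen activator, by 1.33, 1.13 and 1.37, while PTGS2, the inducible cyclooxygenase, fell with B. chinense (-0.32) and P. umbellatus (-0.49). In Huh7 11 of 21 rose (52.4% against 10.5%) and 0 fell with P. chinensis, and 1 rose and 0 fell under B. chinense. With P. umbellatus 6 rose (28.6% against 19.3%) and 2 fell (9.52% against 17.8%). The medians were 0.66, 0.07 and 0.25. GADD45B, a stress gene that limits JNK signalling, rose with P. chinensis (2.64 ± 0.12, SE, adjusted p = 1.52e-07) and B. chinense (0.95), and CXCL1, a chemokine, with P. chinensis (1.83). With P. umbellatus CXCL8 (0.99) and CXCL2 (0.86) rose, and TNFAIP2 (-0.82) and BCL2L1 (-0.50) fell. With the correction 3 rose (14.3% against 11.2% of all genes) and 1 fell with P. umbellatus, CXCL8 (0.61) and CXCL2 (0.79) passed, and TNFAIP2 (-0.17) and BCL2L1 (-0.14) did not. VCAM1, IL6, IL1B, TNF, CSF2, IER3 and MMP9 of this list, and TNFRSF1B of the receptors, were absent from the deposited counts and could not be tested.

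**Figure D5:**
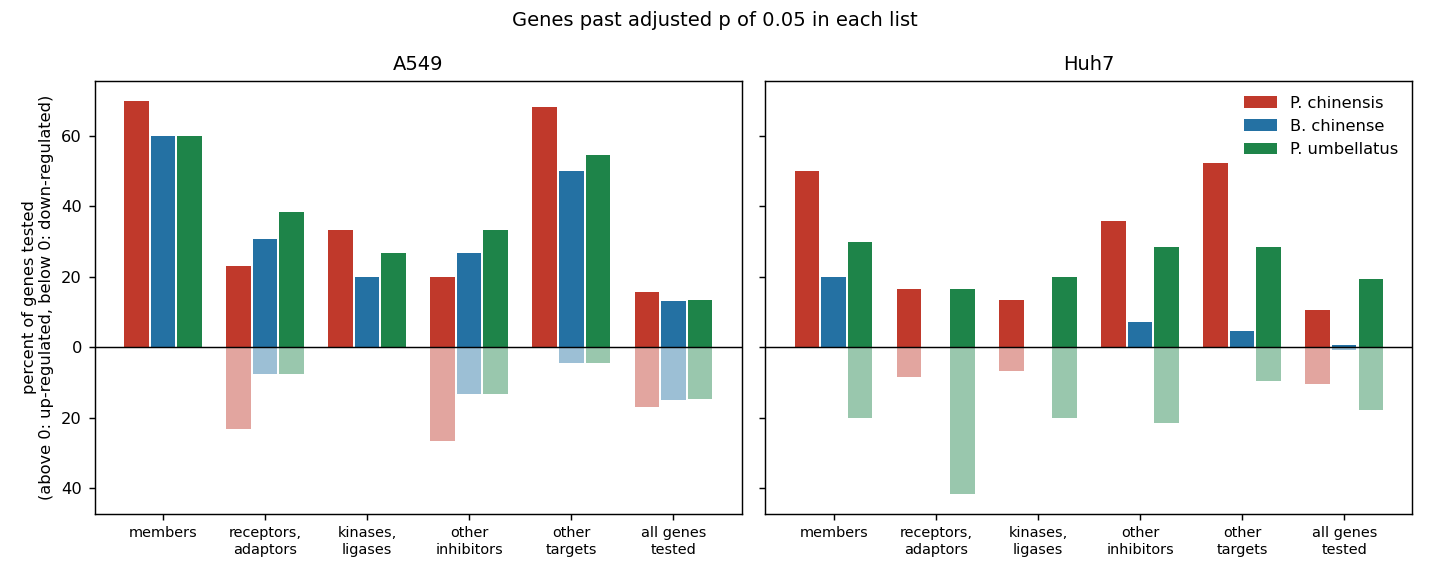
Percent of the genes tested in each list that were up-regulated (above 0) or down-regulated (below 0, paler) with each herb at an adjusted p below 0.05, beside all genes tested. The 10 members and the other target genes have the highest up-regulated bars in A549, and B. chinense has few calls in any list in Huh7.

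The genes whose pattern over the 12 libraries of a line was most like that of 4 members are given as a description. By Pearson correlation of log2 CPM over 12 libraries, which share their groups, the closest in A549 were CD59 to NFKB2 (0.987), KDM6B to RELB (0.980), PLD3 to NFKBIA (0.982) and CDCP1 to BIRC3 (0.989), among 10864 genes whose mean count was 50 or more. In Huh7, among 11254 genes, they were CLDN6 to NFKB2 (0.972), NUDT4B to RELB (0.955), ARHGAP26 to NFKBIA (0.963) and KLF10 to BIRC3 (0.982). None of these genes is one of the 10 members.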

How the data were processed

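The authors estimated transcript counts with kallisto on GRCh38.p13 after FastQC, kept those protein-coding genes whose mean was above 5, and deposited an estimated count per gene as a whole number, with no scaling to library size. How transcripts were summed and rounded, and any strand setting, are not given in the sources used here. The members and the gene lists were chosen with earlier results of these data known. Counts were analysed in R 4.3.3 with edgeR 4.0.16. For each line, genes with a mean above 5 counts over its 12 libraries were normalized by TMM and fitted in 1 quasi-likelihood model of 4 groups with a prior count of 2. The lines were compared in a model of all 24 libraries. Tests were two-sided, and a gene was called where its p, adjusted over all genes tested by Benjamini-Hochberg, was below 0.05. CPM are counts after TMM scaling within a line, and CPM per kb divide them by the canonical transcript length of GENCODE. From each pathway list, the 2 largest rises and 2 largest falls past the test with a mean of at least 50 counts were named for each herb and line. The likeness of patterns was listed for NFKBIA, NFKB2, RELB and BIRC3, of which the closest gene is printed. Low counts limit the precision. The standard errors come from the fitted model, whose spread is estimated over all libraries of a fit. In Huh7 these include the P. umbellatus libraries. The replicate numbers did not pair the groups: over 36 pairs of same-numbered libraries the correlation of deviations was -0.125 to 0.111, with 1 above 0.1. The alternatives were DESeq2 1.42.0, RLE size factors, other filters on low counts, limma 3.58.1 voom with sample weights, the compared libraries alone, the replicate number as a block, each library left out, and, chosen after the data were seen, a correction for GC content and transcript length and B. chinense alone as the other herb. The pipeline was tested on simulated data.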

Additional observations from a re-analysis of the deposited data

Results flagged for a closer look

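The response to a herb differed between the lines, by the interaction test of edgeR, for the genes listed here, with values as the log2 response in A549 minus that in Huh7. Groups of 3 libraries were too small to be tested for single outlying libraries.

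For P. chinensis the difference was 0.63 for NFKB2 and 0.95 for RELB, both with a larger rise in A549, and -1.13 for BIRC3, with a larger rise in Huh7. BIRC3 started from 101 to 107.5 CPM in A549 control cells and from 1.25 to 1.66 CPM in Huh7 control cells. For B. chinense the difference was 1.09 for NFKB2, 1.32 for RELB and 0.59 for NFKBIA. For P. umbellatus it was 1.79 for NFKB2, -0.55 for REL, 0.47 for RELA, 1.68 for RELB, 0.73 for NFKBIA, 0.88 for NFKBIB, 1.12 for NFKBIE and -0.44 for BIRC3. The P. umbellatus libraries of Huh7 were those with a falling slope against GC content. With the correction for GC content and length the differences past the test were 1.07 for NFKB2, 0.69 for RELB, 0.47 for NFKBIA and -0.30 for REL. In that fit 3252 of the 12924 genes tested passed.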

How the results depend on the processing

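In A549, NFKB2, RELB, NFKBIA, NFKBIE and BIRC3 kept direction and call with every herb in each of the 20 alternatives, and the number of the 10 genes changed stayed at 6 to 7 with P. chinensis and at 5 to 6 with each of the other herbs. In Huh7 the calls of TNFAIP3 with every herb, of NFKBIA with P. chinensis and of BIRC3 with P. chinensis and P. umbellatus were kept in the same way. Counts per library were low for TNFAIP3 in A549 control cells (23 to 80), BIRC3 in Huh7 control cells (22 to 33) and NFKBIB in Huh7 with P. umbellatus (15 to 42). The part of depth in the spread of these values was not tested. The number of the 10 genes called changed by over 1.5 times in the cases that follow. In A549, P. chinensis against the other herbs gave 2 genes instead of 1 with DESeq2 and with the compared libraries alone. In Huh7, B. chinense against control gave 1 instead of 2 with the compared libraries alone, and P. umbellatus gave 3 instead of 5. Of the 13875 genes tested, 1122 and 1227 passed in these fits. P. chinensis against B. chinense alone gave 5 instead of 8, when 1083 of all genes passed. The interaction of P. umbellatus gave 4 instead of 8 with the correction for GC content and length, when 3252 of the 12924 genes tested passed. The replicate number as a block (replicate block) gave 5 instead of 8 genes between the control lines and 1 instead of 2 with B. chinense in Huh7, and since the numbers did not pair the groups, these lost calls say nothing of the size of an effect. With 1 library left out the counts were 1 to 2 for P. chinensis against the other herbs in A549, where 2 were called without control replicate 3, and in Huh7 1 to 2 for B. chinense and 3 to 6 for P. chinensis, where 3 were called without control replicate 1 or 3 or P. chinensis replicate 3.

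The correction for GC content and length turned 3 called values, the fall of RELB with P. umbellatus in Huh7 (0.28) and the interactions of P. umbellatus for RELA (-0.11) and NFKBIB (-0.037). The other values that changed sign had not passed the test. With the same correction they were NFKB2 (0.15), RELA (0.23) and NFKBIE (0.26) with P. umbellatus in Huh7, NFKBIB with P. chinensis in Huh7 (0.034), NFKB1 with P. chinensis in A549 (-0.0065), NFKBIE between the control lines (0.22), the interactions of B. chinense for NFKB1 (-0.010), RELA (-0.059) and BIRC3 (0.0011), and that of P. umbellatus for NFKB1 (-0.042). Of these, RELA with P. umbellatus in Huh7 then passed the test. The correction is set within each line, so the NFKBIE value between the control lines is not freed of a GC difference between the lines. NFKBIB against B. chinense alone in A549 was -0.049. NFKBIE between the control lines was 0.0043 with RLE size factors, 0.0016 with DESeq2 and 0.063 with the replicate block. The interactions of P. chinensis for REL, NFKBIA and NFKBIB were 0.0021, 0.0050 and 0.019 with no filter on low counts and 0.0012, 0.0041 and 0.018 with the filterByExpr filter, and NFKBIB was 0.0024 with voom. With voom the interaction of B. chinense for TNFAIP3 was 0.037 and that of P. umbellatus for NFKB1 was -0.034, and with the replicate block the former was 0.026. The cause of these changes was not tested. Among the pathway lists outside P. umbellatus in Huh7, the same correction moved these counts by over 1.5 times. In A549 with P. umbellatus 2 instead of 4 kinases and ubiquitin ligases rose (13.3% against 13.2% of all genes), a share near that of all genes. Of the other inhibitors 3 instead of 5 rose there (20% against 13.2%). Under B. chinense in A549, 3 instead of 1 of the receptors and adaptors fell (23.1% against 15.9%). Of the other targets 0 instead of 1 fell there (0% against 15.9%). In Huh7 with P. chinensis 8 instead of 5 other inhibitors rose (57.1% against 14%). Among the receptors 2 instead of 1 fell (16.7% against 18.6%), as among the kinases (13.3% against 18.6%). Under B. chinense in Huh7, 2 instead of 1 of the other targets rose (9.52% against 2.28%) and 1 instead of 0 fell (4.76% against 3.52%). Of the kinases 1 instead of 0 fell (6.67% against 3.52%).

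With 1 library left out, these values, none of which had passed the test, ran across 0. In A549 they were NFKB1 with P. chinensis (-0.0046 to 0.12) and B. chinense (-0.41 to 0.062), NFKBIB with P. chinensis (-0.18 to 0.013) and B. chinense (-0.12 to 0.063), REL with P. umbellatus (-0.078 to 0.0087), and NFKBIA (-0.016 to 0.086) and NFKBIB (-0.041 to 0.12) with P. chinensis against the other herbs. In Huh7 they were NFKB2 (-0.082 to 0.20) and NFKBIA (-0.10 to 0.17) with B. chinense and NFKBIB with P. chinensis (-0.12 to 0.065). Between the control lines NFKBIE ran from -0.084 to 0.041. Among the interactions they were NFKBIA (-0.11 to 0.021), NFKBIB (-0.15 to 0.077) and TNFAIP3 (-0.48 to 0.20) for P. chinensis, NFKB1 (-0.26 to 0.23), RELA (-0.0016 to 0.090), TNFAIP3 (-0.28 to 0.40) and BIRC3 (-0.16 to 0.059) for B. chinense, and NFKB1 (-0.072 to 0.14) and TNFAIP3 (-0.13 to 0.55) for P. umbellatus.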
